A study of Mus musculus with 8 samples.

Results

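The pyruvate dehydrogenase kinases are the mitochondrial protein kinases encoded by Pdk1, Pdk2, Pdk3 and Pdk4. They were chosen by gene name from a table of 43346 mouse genes, in which each of the 4 names stands on 1 row. All 4 passed the filter on low counts and are among the 16111 genes tested.

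The values come from RNA sequencing of the ventricles of 8 male C57BL/6 mice. At 7 weeks of age, 4 mice received 1000000 LLC1 cells, a Lewis lung carcinoma line, under the skin of the left flank, and 4 received the PBS vehicle. Hearts were taken on day 14. The mice carried no other allele or agent named in the labels, and each is called here by its group and the code in its label (LLC1 1-2, 1-3, 1-5 and 2-2, and PBS 1-1, 1-3, 2-1 and 2-5). The tumor was a transplanted cell line, so the comparison is between hearts of tumor-bearing and vehicle-injected males at a single time.

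The pyruvate dehydrogenase complex turns pyruvate into acetyl-CoA inside mitochondria, and so sets how much glucose and lactate carbon enters the citric acid cycle. The kinases phosphorylate its E1 alpha subunit and switch the complex off, while the pyruvate dehydrogenase phosphatases switch it back on. In heart muscle, which burns mainly fatty acids, Pdk4 is known as the kinase raised by fasting, fatty acids and glucocorticoids through PPAR, FOXO and glucocorticoid receptor signals. Pdk2 is the widely expressed kinase, Pdk1 is a known target of the hypoxia-inducible factor HIF, and Pdk3 is known mostly from testis.

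Libraries held 15342214 to 19747596 counts in LLC1 mice and 12480706 to 16192158 in PBS mice. In a principal component analysis the first component (31.5% of the variance) separated the groups, and the second (25.2%) set PBS 1-1 apart, with a score of 35.3 against -23.3 to -10.8 in the other PBS mice. Results that rest on PBS 1-1 are given below with and without it. Defining markers of ventricular muscle were abundant in every mouse. Their summed level was 99966 to 105970 counts per 1000000 (CPM) in LLC1 mice and 88773 to 91285 CPM in PBS mice. Of the 8 markers, 2 were called higher (Myh6 and Mybpc3), beside 4.12% of all genes tested. Ryr2 (log2 fold change -0.17) and Actc1 (-0.05) went the other way and were not called. The 5 adipocyte markers summed to at most 0.821 CPM in any mouse, and Ucp1 had no count.

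Over all genes, edgeR's quasi-likelihood test at a false discovery rate (FDR) under 0.05 called 1406 of 16111 genes (8.73%), 663 higher in LLC1 mice (4.12%) and 743 lower (4.61%). The median log2 fold change of all genes tested was -0.01. With libraries scaled to total counts only, the split was 225 higher and 793 lower. Of the 4 kinases, 1 was called, Pdk2, which was higher in LLC1 mice. The LLC1 values lay wholly above the PBS values for 2 kinases, Pdk1 and Pdk2, as they did for 8.89% of all genes tested. With 4 members, these counts are descriptions of single genes and not of a family response.

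Pdk2 rose in the hearts of tumor-bearing mice. This gene lies on chromosome 11 at 95026258 to 95041354 of mm10, on the minus strand, and its annotated exons cover 3163 bases. In LLC1 mice 1-2, 1-3, 1-5 and 2-2 its level was 511, 540, 490 and 561 CPM, after normalization by trimmed mean of M values (TMM). In PBS mice 1-1, 1-3, 2-1 and 2-5 it was 356, 385, 444 and 437 CPM. The lowest LLC1 mouse, 1-5, was above the highest PBS mouse, 2-1, so the groups did not overlap. Mean levels were 526 ± 31.4 CPM in LLC1 mice and 406 ± 41.9 CPM in PBS mice (SD, n = 4 each), a 1.30-fold difference. The log2 fold change was 0.37 with a standard error (SE) of 0.08, and its interval of ±1.96 SE ran from 0.22 to 0.53. The FDR of edgeR's quasi-likelihood test was 0.0168. An exact 2-sided permutation test of the group means over the 70 arrangements of mice gave p = 0.0286, the smallest it can give.

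The call for Pdk2 was made under 7 of 8 alternative settings that kept all mice, and was lost with libraries scaled to total counts only (log2 fold change 0.32, FDR 0.0899). It was also lost without LLC1 1-3 (0.36, FDR 0.0561), without LLC1 2-2 (0.34, FDR 0.0544) or without PBS 1-3 (0.34, FDR 0.0708), and remained without each of the other 5 mice. In bulk tissue, fewer cells of a type and less RNA per cell cannot be told apart. The cardiomyocyte marker sum moved with the groups, and relative to it in the same mouse the Pdk2 level was 4.62 to 5.61 CPM per 1000 CPM of markers in LLC1 mice and 3.90 to 5.00 in PBS mice, which overlap. On that scale the mean log2 difference was 0.19 in place of 0.38, with p = 0.143 in the exact permutation test. Myh6, the main heavy chain of mouse ventricle, made up 52.0% of the marker sum and 67.6% of its gap between groups. Relative to the other 7 markers the difference in Pdk2 was 0.25, again with an exact permutation p of 0.143.

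The bases upstream of the Pdk2 and Pdk4 start sites are shown because these genes give most of the kinase mRNA in the heart. They are RefSeq sequence of GRCm38.p6, 5′ to 3′ on the gene's own strand, from chr11:95041372-95041621 for Pdk2 and chr6:5496310-5496528 for Pdk4, both on the minus strand. RefSeq starts Pdk2 17 bases upstream of the start in the count table and Pdk4 31 bases downstream of it, so the printed Pdk4 run leaves out the last 31 bases of the searched window. Capitals mark the E-box, which also holds the shorter hypoxia response core on each strand.
Pdk2: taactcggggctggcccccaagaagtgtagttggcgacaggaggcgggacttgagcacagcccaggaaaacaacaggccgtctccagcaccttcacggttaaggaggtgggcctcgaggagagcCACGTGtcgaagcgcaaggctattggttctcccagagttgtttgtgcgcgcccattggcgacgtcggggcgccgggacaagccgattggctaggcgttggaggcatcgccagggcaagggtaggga
Pdk4: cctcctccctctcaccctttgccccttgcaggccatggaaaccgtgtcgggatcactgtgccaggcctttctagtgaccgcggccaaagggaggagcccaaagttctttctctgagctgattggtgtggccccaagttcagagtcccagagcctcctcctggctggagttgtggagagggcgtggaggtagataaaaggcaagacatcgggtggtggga

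Both strands of the 250 bases before the RefSeq start were searched for AGGTCA (nuclear receptor half-site), GTAAACA (forkhead), ACGTG (hypoxia response core) and CACGTG (E-box, which holds ACGTG on each strand). Over 32851 promoters of the same length, 14.0% held AGGTCA, 3.17% GTAAACA, 16.6% ACGTG and 6.02% CACGTG. The Pdk2 sequence held CACGTG with its first base 126 bases before the start, while the window of another annotated Pdk2 start held none of the motifs. The Pdk3 sequence held ACGTG at 53 bases before the RefSeq start, and the Pdk1 and Pdk4 sequences held none of the motifs. For Pdk3 the RefSeq start lies downstream of the start in the count table, and the match lies across that table start. A match is a run of letters and not a bound site, and the absence of a match concerns this window only.

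Pdk4 had the highest level of the kinases and the widest spread between mice of the 3 well-expressed kinases. It lies on chromosome 6 at 5483351 to 5496309 of mm10, on the minus strand, with 3511 bases of exon. Its level was 718, 1523, 1406 and 1481 CPM in LLC1 mice 1-2, 1-3, 1-5 and 2-2. In PBS mice 1-1, 1-3, 2-1 and 2-5 it was 449, 987, 1016 and 1245 CPM. One mouse in each group was low, LLC1 1-2 and PBS 1-1, and LLC1 1-2 lay below 3 of the 4 PBS mice. The other 3 LLC1 mice were above every PBS mouse. Group means were 1282 ± 379 and 924 ± 337 CPM (SD, n = 4 each), a 1.39-fold difference.

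The log2 fold change of Pdk4 was 0.47 (SE 0.28, interval -0.08 to 1.02) and was not called, with an FDR of 0.315 by edgeR's quasi-likelihood test. The exact 2-sided permutation p was 0.286. The fold estimate of Pdk4 was larger than that of Pdk2, and its SE was larger too. The coefficient of variation of Pdk4 was 29.6% in LLC1 mice and 36.5% in PBS mice, against 5.97% and 10.3% for Pdk2. Without PBS 1-1 the log2 fold change was 0.24, and without LLC1 1-2 it was 0.67, neither of them called. Relative to the summed cardiomyocyte markers, the mean log2 difference of Pdk4 was 0.32 (exact permutation p = 0.486) in place of 0.51, and relative to those other than Myh6 it was 0.38 (exact permutation p = 0.486). The interval of the fit on all mice includes both no difference and a fold larger than that of Pdk2, so the data neither placed Pdk4 with the unchanged genes nor called it.

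Pdk1 differed little between groups and was even within the LLC1 group. It lies on chromosome 2 at 71873224 to 71903858, on the plus strand, with 7779 bases of exon. The level was 190, 190, 192 and 187 CPM in LLC1 mice 1-2, 1-3, 1-5 and 2-2. In PBS mice 1-1, 1-3, 2-1 and 2-5 it was 181, 162, 170 and 142 CPM. The groups did not overlap, though PBS 1-1 came close to the LLC1 mice. The coefficient of variation was 1.00% in LLC1 mice and 9.95% in PBS mice, and the difference in spread was not tested.

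Mean levels of Pdk1 were 190 ± 1.90 CPM and 164 ± 16.3 CPM (SD, n = 4 each), a 1.16-fold difference with a log2 fold change of 0.21 (SE 0.07). It was not called (FDR 0.0914 by edgeR). The exact 2-sided permutation test gave p = 0.0286, the smallest possible with 4 against 4 mice. Without PBS 1-1 Pdk1 was called (log2 fold change 0.26, FDR 0.0250). Relative to the summed cardiomyocyte markers, the mean log2 difference of Pdk1 was 0.03 (exact permutation p = 0.886) in place of 0.22, and relative to those other than Myh6 it was 0.09 (exact permutation p = 0.257).

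Pdk3 was near the limit of what these libraries count. It lies on chromosome X at 93764607 to 93832201, on the minus strand, with 2561 bases of exon. Counts were 27, 18, 18 and 29 in LLC1 mice 1-2, 1-3, 1-5 and 2-2, and 15, 33, 19 and 30 in PBS mice 1-1, 1-3, 2-1 and 2-5. In CPM these were 0.985 to 1.79 and 1.12 to 2.31, and the groups overlapped. The log2 fold change was -0.27 (SE 0.28, interval -0.81 to 0.27, edgeR FDR 0.584), and it was -0.06 without PBS 1-3 and -0.43 without PBS 2-1, with no call in either. No difference was detected, and the interval of the fit on all mice includes changes in either direction.

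**Figure D1:**
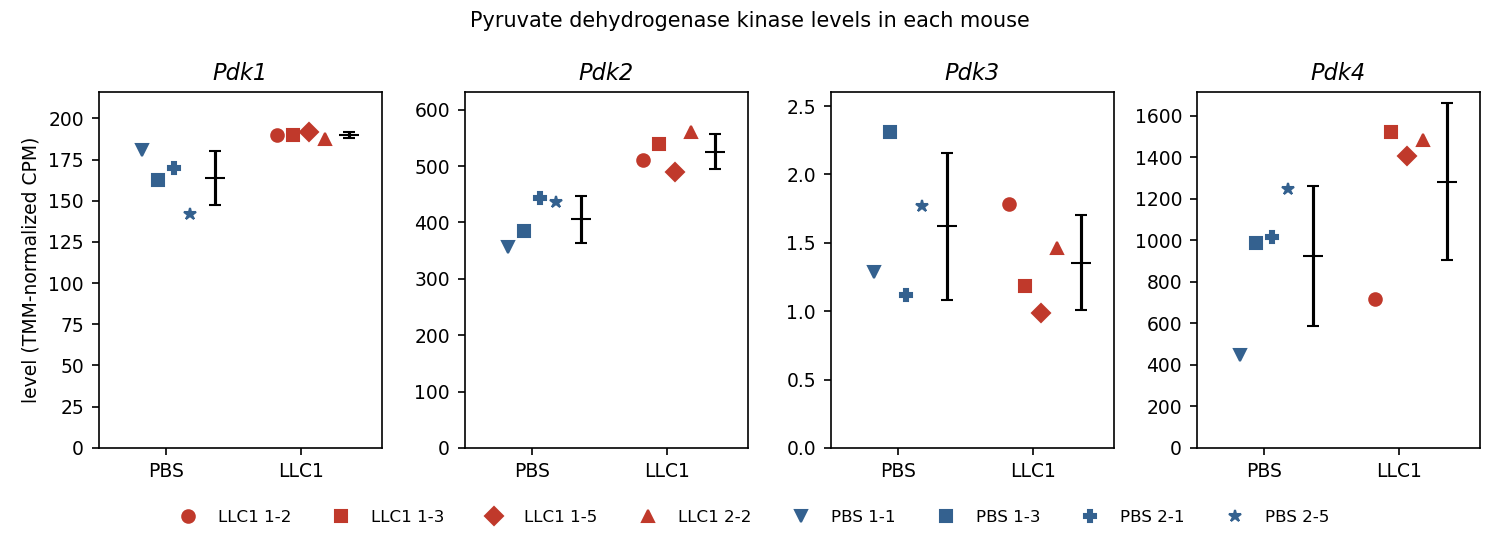
Level of each kinase in TMM-normalized CPM (vertical axes, each from 0 with its own scale) for the 4 PBS and 4 LLC1 mice; each mouse has its own symbol, and the bars beside the points are the group mean and SD. The LLC1 mice lie above the PBS mice for Pdk1 and Pdk2, while for Pdk4 the circle of LLC1 1-2 at 718 CPM lies among the PBS mice.

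The difference between groups was also taken within the first number of the mouse code, whose meaning the labels do not give. For Pdk2 the difference of mean log2 CPM was 0.47 among mice of number 1 and 0.35 among mice of number 2, which holds 1 LLC1 mouse. For Pdk4 it was 0.79 and 0.40, and for Pdk1 it was 0.15 and 0.27. Pdk3 gave -0.40 and 0.05. The 3 abundant kinases were higher in LLC1 mice within both numbers. With the number as a covariate in the edgeR fit, the log2 fold change was 0.43 for Pdk2 (FDR 0.00282), 0.63 for Pdk4 (FDR 0.146) and 0.19 for Pdk1 (FDR 0.104).

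Reads of one kinase could be taken for another only where their transcripts are nearly alike. The closest pair by transcript alignment, Pdk2 and Pdk4, was 79.1% identical over 182 bases, and no transcript of another gene matched a kinase at 97% identity or more over at least 150 bases. The only annotated gene that overlaps a kinase is Gm11513, antisense to Pdk2, and it shares 0 exon bases with it. Whether the counting used strand is not given in the sources used here.

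To set the kinases beside each other, CPM was divided by gene length in kilobases (kb). Pdk4 then stood highest, with 365 ± 108 CPM per kb in LLC1 mice and 263 ± 95.9 in PBS mice. Pdk2 followed with 166 ± 9.92 and 128 ± 13.3 CPM per kb. Pdk1 was at 24.4 ± 0.244 and 21.04 ± 2.09, and Pdk3 at 0.529 ± 0.136 and 0.634 ± 0.210 (SD, n = 4 each). By mean level per kb, 98.9% of the genes tested lay below Pdk4, 97.8% below Pdk2, 86.5% below Pdk1 and 10.1% below Pdk3. Pdk4 and Pdk2 were therefore among the most abundant mRNAs of the ventricle.

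The order Pdk4, Pdk2, Pdk1, Pdk3 held in 8 of 8 mice. Within a mouse, Pdk4 was 1.14 to 2.59 times Pdk2 per kb, Pdk2 was 4.85 to 7.57 times Pdk1, and Pdk1 was 23.1 to 64.2 times Pdk3. The lower 3 kinases were separated by far more than their spread. Pdk4 and Pdk2 were not so in every mouse. In PBS mice their ranges overlapped (128 to 355 and 113 to 140 CPM per kb), and with the longest annotated transcript in place of the full exon length, Pdk4 was above Pdk2 in 6 of 8 mice, the exceptions being LLC1 1-2 and PBS 1-1.

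Of the summed level per kb, Pdk4 made up 64.5 ± 8.14% in LLC1 mice and 62.0 ± 9.30% in PBS mice, and Pdk2 30.9 ± 6.98% and 32.3 ± 7.05%. Pdk1 held 4.56 ± 1.14% and 5.52 ± 2.26%, and Pdk3 0.102 ± 0.0518% and 0.159 ± 0.0527%. The make-up of the pool was thus close in the group means and differed between single mice. Pdk4 held 52.3% in LLC1 1-2 and 48.4% in PBS 1-1, against 64.0% to 69.3% in the other 6 mice.

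The summed kinase level was 391, 629, 581 and 624 CPM per kb in LLC1 mice 1-2, 1-3, 1-5 and 2-2. It was 264, 425, 452 and 512 CPM per kb in PBS mice 1-1, 1-3, 2-1 and 2-5. As with Pdk4 itself, 3 LLC1 mice were above every PBS mouse and LLC1 1-2 was not.

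**Figure D2:**
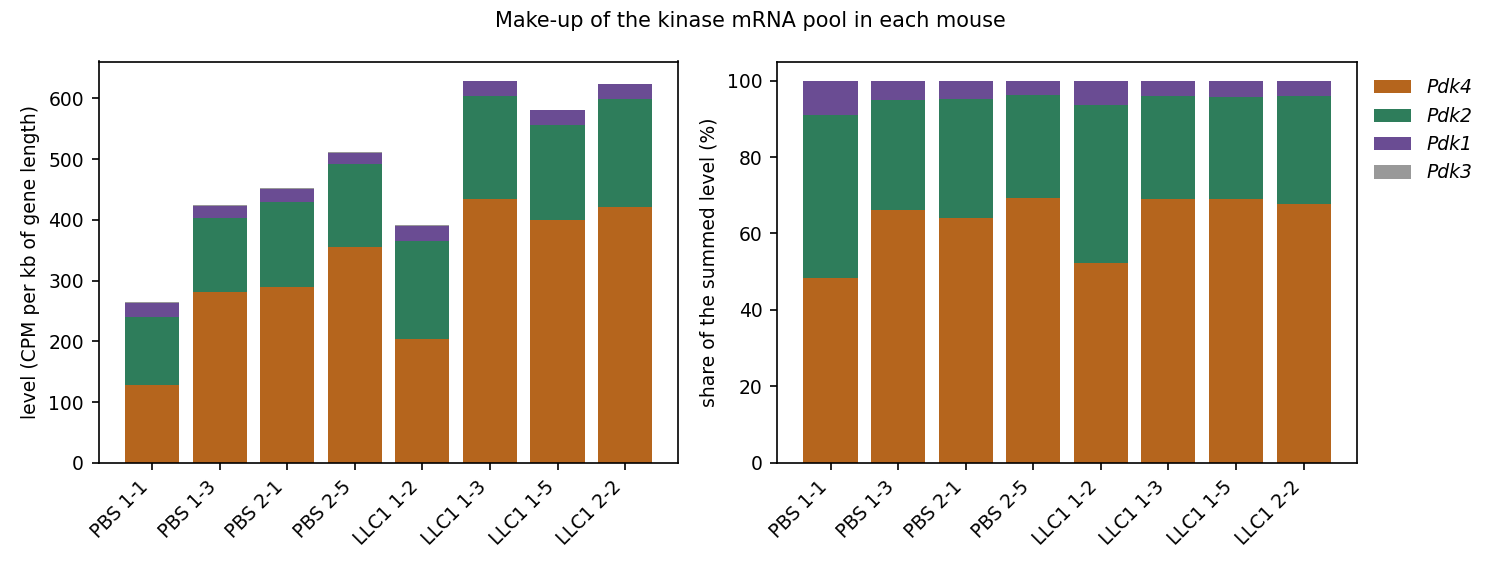
Make-up of the kinase mRNA pool in each mouse, as level in CPM per kb of gene length (left) and as percent of the summed level (right). Pdk4 is the largest segment in all 8 mice and is smallest in PBS 1-1 and LLC1 1-2, and Pdk3, at 0.0662% to 0.213% of the pool, is too thin to see.

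Because a ratio of counts in one library does not depend on how libraries are scaled, the balance of the 2 main kinases was compared in that form. The log2 ratio of Pdk4 to Pdk2 counts was 0.491, 1.496, 1.52 and 1.40 in LLC1 mice 1-2, 1-3, 1-5 and 2-2. In PBS mice 1-1, 1-3, 2-1 and 2-5 it was 0.335, 1.36, 1.19 and 1.51. Each group again had 1 low mouse and 3 close together. The means, 1.23 ± 0.494 and 1.10 ± 0.526 (SD, n = 4 each), differed by 0.13, with p = 0.514 in the exact 2-sided permutation test. Without PBS 1-1 the difference was -0.13 (exact permutation p = 0.943). No difference in the Pdk4 to Pdk2 balance between groups was detectable.

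The complex that the kinases act on has 5 subunit genes in the list. None was called by edgeR, DESeq2 or limma-voom, beside 8.73% of all genes called by edgeR, a share at which 0 of 5 is near the background. None had an unadjusted p under 0.05, and the median log2 fold change was -0.02 (range -0.06 to 0.13). The share of all genes with an unadjusted p under 0.05 was not counted, here or for the lists below. Pdha1, the E1 alpha subunit that carries the sites the kinases phosphorylate, was at 1300 ± 57.0 CPM in LLC1 mice and 1188 ± 105 CPM in PBS mice. Pdhb, its E1 beta partner, was at 614 ± 43.8 and 612 ± 36.8 CPM. Dlat, the E2 acetyltransferase core, was at 391 ± 13.7 and 397 ± 46.0 CPM. Dld, the E3 dehydrogenase shared with other complexes, was at 440 ± 35.7 and 458 ± 54.7 CPM. Pdhx, which tethers E3 to the core, was at 151 ± 10.4 and 154 ± 13.9 CPM. The groups overlapped for all 5 (SD, n = 4 each).

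For the 3 phosphatase genes, which oppose the kinases, the same tools made 0 calls, and 0 had an unadjusted p under 0.05. With 8.73% of all genes called, 0 of 3 is again near the background. The catalytic subunit Pdp1 was at 36.4 ± 1.81 and 38.9 ± 4.10 CPM in LLC1 and PBS mice, and Pdp2 at 26.2 ± 5.39 and 22.1 ± 4.57 CPM. The regulatory subunit Pdpr was at 113 ± 3.95 and 108 ± 8.67 CPM. Per kb, the 4 kinases summed to 29.8, 38.7, 35.3 and 37.4 times Pdp1 and Pdp2 together in LLC1 mice 1-2, 1-3, 1-5 and 2-2. The ratio was 19.4, 32.0, 24.9 and 34.4 in PBS mice 1-1, 1-3, 2-1 and 2-5, and the groups overlapped.

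Bckdk, the closest relative of the pyruvate dehydrogenase kinases, restrains the branched-chain ketoacid dehydrogenase complex in the same way. It was at 113 ± 4.93 CPM in LLC1 mice and 98.0 ± 7.48 CPM in PBS mice, with groups that did not overlap, and like Pdk1 it was not called (log2 fold change 0.21, edgeR FDR 0.0832). Of the 5 genes of this kinase and its complex, 1 was called higher, Bckdha, the E1 alpha subunit, beside 4.12% of all genes called higher. Bckdha rose from 292 ± 31.1 CPM to 414 ± 21.3 CPM (log2 fold change 0.50, edgeR FDR 0.00412) and remained called whichever mouse was left out. Bckdhb, the E1 beta subunit, was at 53.4 ± 5.58 and 44.8 ± 4.33 CPM, and was called only without PBS 1-1 (log2 fold change 0.32, edgeR FDR 0.0225). Dbt, the E2 core, was at 73.1 ± 1.72 and 74.7 ± 4.59 CPM, and the phosphatase Ppm1k at 133 ± 8.65 and 130 ± 6.88 CPM.

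**Figure D3:**
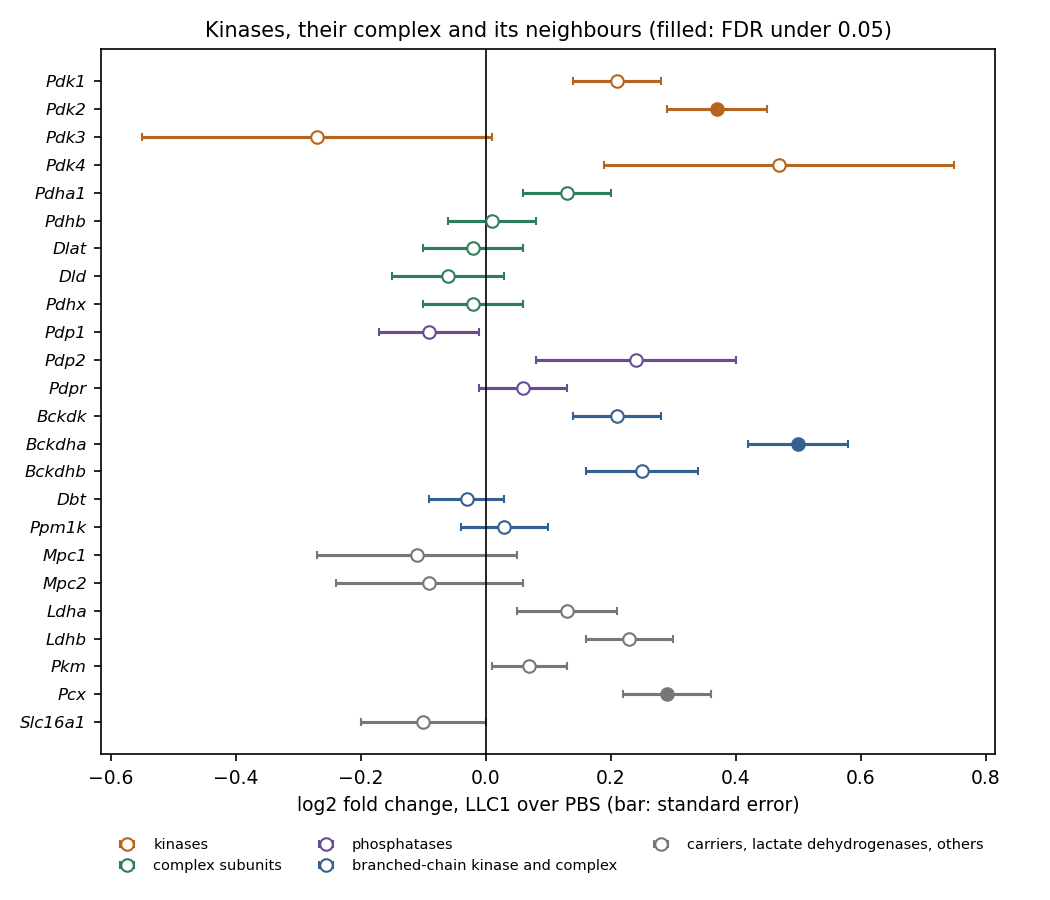
Log2 fold change, LLC1 over PBS (horizontal axis), of the 4 kinases, the complex, the phosphatases, the branched-chain kinase and complex, and pyruvate carriers and dehydrogenases; bars are 1 SE and filled points have an edgeR FDR under 0.05. Filled points are Pdk2 at 0.37, Bckdha at 0.50 and Pcx at 0.29, and the complex subunits lie between -0.06 and 0.13.

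Genes that bring pyruvate to the complex or compete for it were mostly not called. Beside 4.12% of all genes called higher, 1 of 7 genes was, Pcx, which carboxylates pyruvate to oxaloacetate, at 51.1 ± 3.90 against 41.8 ± 2.60 CPM (log2 fold change 0.29, edgeR FDR 0.0334, called in 3 of 8 fits with a mouse left out, with the highest FDR, 0.102, without LLC1 1-3). With total-count scaling 0 of the 7 were called, beside 225 higher and 793 lower of all 16111 genes. On that scale 1 of the 7 had an unadjusted p under 0.05, and Pcx was at 0.24 (FDR 0.163). DESeq2 and limma-voom each called 2 of the 7, beside 1757 and 1385 of the 16111 genes. The median of the 7 was 0.07. Of 6 genes of lipoic acid synthesis and attachment, which make the cofactor of Dlat, 5 were found in the table. Among these, edgeR, DESeq2 and limma-voom called 0, beside 8.73% of all genes called by edgeR. An unadjusted p under 0.05 was reached by 2, and the median was 0.10.

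Among 13 regulators known to act on kinase transcription, 3 were called higher, beside 4.12% of all genes, and none lower, with a median log2 fold change of 0.15. Foxo3, a forkhead factor that fasting activates, rose by a log2 fold change of 0.49 (edgeR FDR 0.00611). Srebf1, a factor of lipid synthesis, rose by 0.44 (edgeR FDR 0.0164, called in 5 of 8 fits with a mouse left out, with the highest FDR, 0.0652, without PBS 1-3). Esrra, an orphan receptor of mitochondrial genes, rose by 0.25 (edgeR FDR 0.0302, called in 3 of 8 such fits, at most 0.101 without PBS 1-3). With total-count scaling, 1 of the 13 was called, beside 225 higher and 793 lower of all 16111 genes. Ppara, Foxo1 and the glucocorticoid receptor gene Nr3c1 were not called. Ppara was at 48.0 ± 4.84 and 42.1 ± 3.51 CPM, and Foxo1 at 27.4 ± 2.92 and 26.7 ± 2.34 CPM in LLC1 and PBS mice. Nr3c1 was at 87.0 ± 5.10 and 100.6 ± 9.12 CPM (log2 fold change -0.21, edgeR FDR 0.111). These 3 were named outside the rule for called genes, after their values were seen.

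Other genes under the known regulators of Pdk4 were counted beside it. Of 18 PPAR target genes of fatty acid use, 7 were called higher and none lower, with a median log2 fold change of 0.21, beside 4.12% of all genes called higher. Genes of this and the other lists were not rescaled to the cardiomyocyte markers, whose own log2 fold changes ran from -0.17 (Ryr2) to 0.34 (Mybpc3). The part of cardiomyocyte content in the counts of the lists was not tested. The lowest FDR values were those of Acot1, a thioesterase (log2 fold change 0.51, edgeR FDR 0.00323), Mlycd, which removes malonyl-CoA (0.36, FDR 0.00511), Cpt1b, the carnitine shuttle enzyme of muscle (0.33, FDR 0.00649), and Plin5, a lipid droplet coat protein (0.38, FDR 0.0101). These 4 remained called whichever mouse was left out. Total-count scaling called 4 of the 18 genes, beside 225 higher and 793 lower of all 16111 genes.

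Of 15 FOXO and glucocorticoid receptor target genes, 6 were called higher, beside 4.12% of all genes, and none lower, with a median log2 fold change of 0.48 (-0.01 over all genes). Pik3ip1, an inhibitor of PI3-kinase signalling, rose by 0.81 (edgeR FDR 0.00110), and Klf15, a glucocorticoid-induced factor of amino acid use, by 0.75 (edgeR FDR 0.00167). Trim63, the muscle ubiquitin ligase MuRF1, rose by 0.34 (edgeR FDR 0.0213, called in 4 of 8 fits with a mouse left out, at most 0.0665 without LLC1 1-5), and Cebpd by 0.87 (edgeR FDR 0.0350, called in 1 of 8 such fits, the one without PBS 1-1, and at most 0.0975 without LLC1 1-2). With total-count scaling 4 of the 15 were called, beside 225 higher and 793 lower of all 16111 genes.

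Of 12 HIF target genes of glucose use, to which Pdk1 is often joined, 2 were called higher, beside 4.12% of all genes, and none lower, with a median of 0.18. These were Aldoa, a glycolytic aldolase (log2 fold change 0.32, edgeR FDR 0.0199, and at most 0.0604 without LLC1 1-5), and Bnip3, a mitophagy receptor (0.35, edgeR FDR 0.0278, and at most 0.0855 without LLC1 1-5). Each was called in 3 of 8 fits with a mouse left out. With total-count scaling 1 was called, beside 225 higher and 793 lower of all 16111 genes. Of 15 clock genes, 0 were called by edgeR, DESeq2 or limma-voom, beside 8.73% of all genes called by edgeR. Among them 0 had an unadjusted p under 0.05, and the median was 0.15.

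The 18 PPAR target genes did not follow Pdk4 as one in the 2 mice low in it. Both LLC1 1-2 and PBS 1-1 were the lowest of their groups for 4 of the 18 and the highest of their groups for 4 others. Ucp3, a mitochondrial carrier, was at 58.2 CPM in LLC1 1-2 and 36.4 CPM in PBS 1-1, and at 91.8 to 153 CPM in the other 6 mice. Angptl4, a secreted inhibitor of lipoprotein lipase, was at 9.79 and 8.67 CPM in the same mice and at 25.3 to 38.4 CPM in the rest. Neither gene was called between groups (log2 fold changes 0.05 and -0.25), and both were picked for display after their values were seen. The 4 genes highest in these mice were Acadm, Hadha, Acadvl and Fabp3, all of fatty acid transport or oxidation, with Acadm at 1300.0 CPM in LLC1 1-2 against 1200.1 to 1274 CPM in the other LLC1 mice and at 1118 CPM in PBS 1-1 against 1033 to 1112 CPM in the other PBS mice. Of the 15 clock genes, PBS 1-1 had the lowest value of its group for 8 and the highest for 5, and LLC1 1-2 the lowest for 3 and the highest for 2. Arntl, picked after its values were seen, was in PBS 1-1 at 32.3 CPM against 8.09 to 17.3 in the other PBS mice, while in LLC1 1-2 it was at 12.2 CPM against 10.2 to 18.9 in the other LLC1 mice. The red blood cell markers summed to 5180 CPM in LLC1 1-2 against 1428 to 2636 CPM in the other LLC1 mice. The part of these differences in the Pdk4 values was not tested.

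**Figure D4:**
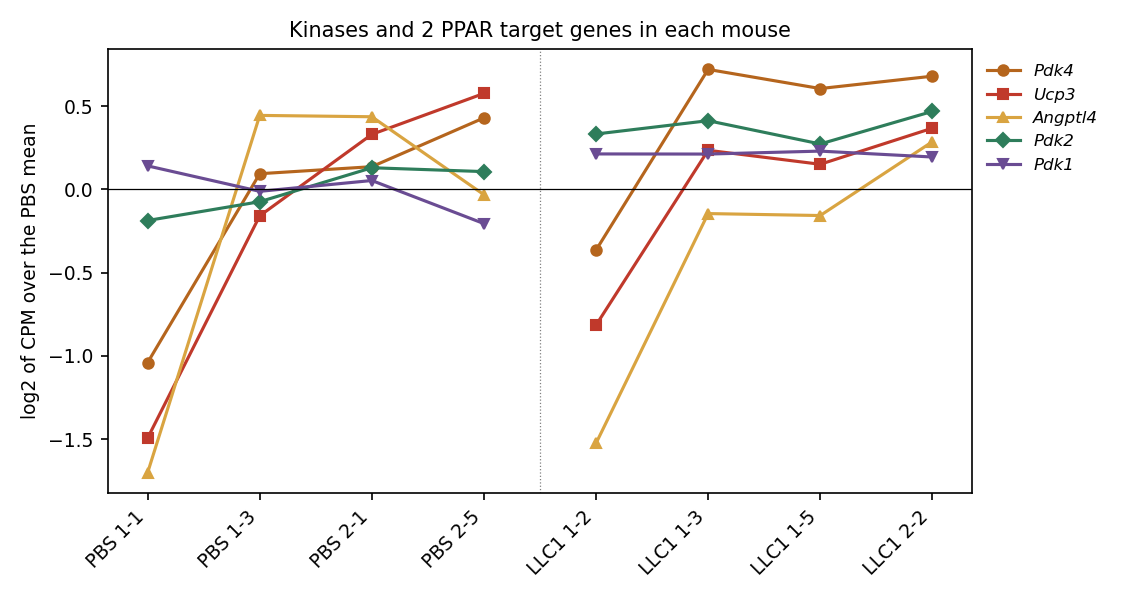
Level of Pdk4, Pdk2, Pdk1 and the PPAR target genes Ucp3 and Angptl4 in each mouse, as log2 of CPM over the PBS mean (vertical axis), with lines joining the values of one gene within a group and no order among mice. Pdk4, Ucp3 and Angptl4 have their lowest value of each group in PBS 1-1 and LLC1 1-2, while Pdk2 is lowest of the PBS mice in PBS 1-1, at 356 CPM, and is at 511 CPM in LLC1 1-2, within the 490 to 561 CPM of its group.

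Markers of other cell types were summed in the same way. Over all genes, 4.61% were called lower and 4.12% higher. Fibroblast markers summed to 802 to 880 CPM in LLC1 mice and 869 to 1248 in PBS mice, with 2 of 5 called lower. Both are collagen genes, Col3a1 (log2 fold change -0.98) and Col1a1 (-0.60), while Pdgfra (-0.07), Tcf21 (-0.21) and Dcn (0.07) were not called. Endothelial markers summed to 733 to 866 and 848 to 1136 CPM, with 1 of 5 called lower. Smooth muscle and pericyte markers summed to 716 to 789 and 819 to 962 CPM, with no gene called, and macrophage markers to 92.2 to 107 and 98.2 to 148 CPM, with 1 of 5 called lower. Neutrophil markers were at 3.22 to 6.19 and 1.24 to 2.92 CPM, with 2 of the 3 tested called higher. Lymphocyte markers were at 0.654 to 1.52 and 1.05 to 2.57 CPM, epithelial markers at 1.59 to 6.78 and 2.32 to 4.25 CPM, and atrial markers, nearly all Nppa, at 113 to 339 and 123 to 249 CPM. Of the 6 skeletal muscle markers only Ckm, which heart also expresses, was above 2 CPM in group mean, and Myh4 had no count. The part of these markers in the kinase values, beyond the ratio to cardiomyocyte markers given above, was not tested.

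The genes most like each kinase across the 8 mice were taken by Pearson's correlation of log2 CPM among 9345 genes with a mean of at least 10 CPM. The mice share the group difference and their library depth, so these are descriptions. For Pdk2 the 5 closest were Gm16845, Pygm (muscle glycogen phosphorylase), Tns1, Lonp1 (a mitochondrial protease) and Pagr1b, with r from 0.986 to 0.992, Spearman's rho from 0.952 to 1.0, and r from 0.958 to 0.990 without the 2 mice farthest from the median of Pdk2. For Pdk4 they were Spryd3, Lrrc61, Kdm4a (a histone demethylase), Preb and Zswim4, with r from 0.968 to 0.989, rho from 0.905 to 0.976, and r from 0.812 to 0.968 without PBS 1-1 and LLC1 1-2.

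For Pdk1 the 5 closest were Lrrc2, Coq2 (coenzyme Q synthesis), Tmem182, Ptpn21 and Sdhc (a subunit of succinate dehydrogenase), with r from 0.963 to 0.987, rho from 0.833 to 0.976, and r from 0.840 to 0.965 without 2 mice. For Pdk3, 4 close genes were Fam129b, Gm9790, Cmpk2 and Riok2, with r from 0.881 to 0.904, rho from 0.833 to 0.905, and r from 0.752 to 0.915 without 2 mice. No gene was among the closest 5 of more than 1 kinase.

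**Figure D5:**
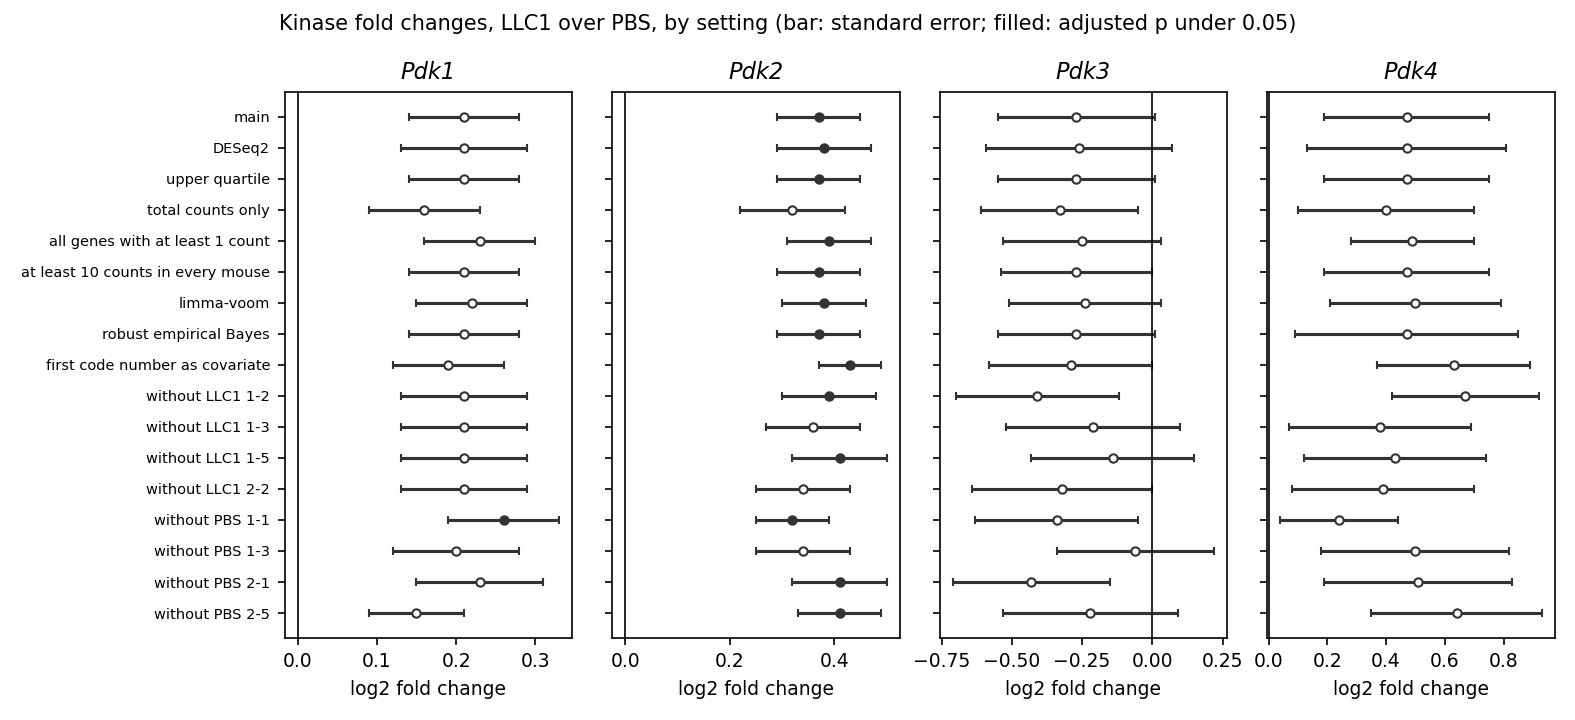
Log2 fold change of each kinase, LLC1 over PBS (horizontal axes, own scale each), as reported at the top and under each alternative setting, with bars of 1 SE and filled points where the adjusted p is under 0.05. Pdk2 is filled in all settings that keep every mouse but total counts only, Pdk1 is filled only without PBS 1-1, and Pdk4 runs from 0.24 to 0.67 with no filled point.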

How the data were processed

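Total RNA was isolated from the ventricles of the 8 mice with miRNeasy kits, and TruSeq RNA v2 libraries were sequenced as 150-base paired ends on an Illumina HiSeq. The authors deposited whole-number read counts per gene, not normalized; the submitters' processing notes name CASAVA, STAR, featureCounts and mm10, and the annotation and strand setting are not given in the sources used here.

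Counts were filtered by filterByExpr, scaled by TMM and compared with edgeR 4.0.16 (R 4.3.3) by the quasi-likelihood F-test on all 16111 genes, LLC1 against PBS, with Benjamini-Hochberg adjustment and an FDR threshold of 0.05; steps were tested on simulated data. Groups were taken from the stated treatment. Library totals, from 12480706 to 19747596, make 1 CPM worth about 12 to 20 counts. Nothing states whether mice shared a cage, and the tests took each mouse as an independent unit.

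The alternatives were DESeq2 1.42.0, upper-quartile and total-count scaling, all genes with at least 1 count, at least 10 counts in every mouse, robust empirical Bayes, limma-voom (limma 3.58.1), each mouse left out, and a covariate for the first code number. Chosen after seeing the data were the longest GENCODE M21 transcript as length and scaling to cardiomyocyte markers, with and without Myh6. Transcripts were compared with BLAST 2.17.0. The kinases, the gene and marker lists and the tests were chosen with earlier results of these data known. Genes named were all kinases, all genes of the complex, phosphatase and branched-chain lists, of other lists up to 4 called genes with the lowest FDR in a direction, and the 5 genes most like each kinase (log2 CPM, prior count 2). For Pdk3, 1 of these genes is not reported here.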

Additional observations from a re-analysis of the deposited data

Results flagged for a closer look

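In groups of 4 mice, a mouse was singled out when its gap to the nearest other mouse was too large a share of the group's range by Dixon's 95% critical value. This was the case in 5 of 64 groups, which were the 4 kinases, the 27 genes named from the lists by rule and the Pdk4 to Pdk2 ratio in both groups of mice, where chance gives about 1 in 20. Pdk4 in LLC1 1-2 was at 718 CPM against 1406 to 1523 CPM in the other LLC1 mice. The log2 ratio of Pdk4 to Pdk2 in the same mouse was 0.491 against 1.40 to 1.52, and it shares the Pdk4 value. PBS 1-1 was highest of its group for Bckdhb, at 51.2 CPM against 41.8 to 43.2 CPM, and for Esrra, at 173 CPM against 157 to 160 CPM. Mlycd in LLC1 2-2 was at 151 CPM against 145 CPM in each of the others, a small gap in a group that was otherwise even. No cause was tested for any of these.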

How the results depend on the processing

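With total-count scaling, which shifted the median log2 fold change of all genes by -0.055, Pdk2 was 0.32 (FDR 0.0899), 0 kinases were called (2 had an unadjusted p under 0.05), Pdhb turned to -0.05 and Ppm1k to -0.02. Pdhb was -0.03 with the first code number as a covariate. The cause of these changes was not tested beyond the change in scaling. With single mice left out, the genes called ran from 542 (without PBS 1-3) to 1949 (without PBS 1-1), the kinases called from 0 to 2, Pdk2 from 0.32 to 0.41, Pdk1 from 0.15 to 0.26, Pdk3 from -0.43 to -0.06, Pdk4 from 0.24 to 0.67, and the Pdk4 to Pdk2 difference from -0.13 to 0.37. Near-zero changes turned sign, Pdhb from -0.04 to 0.04, Dlat from -0.09 to 0.05, Dld from -0.13 to 0.01, Pdhx from -0.09 to 0.02, Dbt from -0.06 to 0.01 and Ppm1k from -0.01 to 0.06. In the settings that kept all mice, the genes called ran from 1018 to 1757, Pdk1 from 0.16 to 0.23, Pdk3 from -0.33 to -0.24 and Pdk4 from 0.40 to 0.63, with none of these 3 kinases called. No paired analysis was possible because the groups share only 1 replicate code, carried by different animals. Pdk3 had the lowest counts of the kinases, at 15 to 33 a mouse, and the part of depth in its result was not tested.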
